A study of Mus musculus with 6 samples.

Results

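The miR-34 family was followed in the renal cortex of mice on a diet that induces fatty liver disease, with and without the drug tofogliflozin. Its members were the 6 mature arms of the hairpins mir-34a, mir-34b and mir-34c (mmu-miR-34a-5p, mmu-miR-34a-3p, mmu-miR-34b-5p, mmu-miR-34b-3p, mmu-miR-34c-5p and mmu-miR-34c-3p), chosen by name from the 1900 mature miRNA names in the deposited tables, by a rule that uses no measured value. Each of the 6 names had a single row in every table. The treated mice were 3 C57BL/6 mice given tofogliflozin in the diet for 8 weeks (NASHTofo in the sample titles), and 3 C57BL/6 mice received the same diet without the drug for 8 weeks (NASH in the titles). Both groups therefore ate a diet rich in fat and cholesterol with added bile salt, and no mouse on ordinary chow was compared. Tofogliflozin inhibits SGLT2, a glucose transporter of the proximal tubule. The miRNA counts come from whole cortex, in which fewer cells of a type and less RNA per cell cannot be told apart.

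As background, the miR-34 genes are among the best known miRNA targets of the transcription factor p53, which binds near both of their loci and raises their transcription after DNA damage and other stress. The mature 5p arms repress cell-cycle and survival genes such as Cdk6, Met and Bcl2, and miR-34a also represses the deacetylase gene Sirt1. A miRNA recognises its targets mainly through its seed, bases 2 to 8 from the 5′ end. miR-34a is transcribed from its own locus and is widely expressed, whereas miR-34b and miR-34c are cut from a shared transcript that is abundant in testis and in multiciliated epithelia, where the miR-449 family carries the same seed as miR-34a and miR-34c.

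Hairpin mir-34a lies at chr4:150068454-150068555 on the plus strand of mm10, where its last 17 bases overlap an exon of the unclassified transcript Gm37795. Hairpins mir-34c (chr9:51103034-51103110) and mir-34b (chr9:51103562-51103645) lie on the minus strand, 451 bases apart. They stand opposite an intron of Btg4, a protein-coding gene on the plus strand, and overlap none of its exons. RefSeq sequences (GRCm38.p6) were matched for 5 of the 6 members and are shown, with the seed in capitals, because the seed decides which arms can act on the same targets. miR-34c-5p is the member without an entry.

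mmu-miR-34a-5p: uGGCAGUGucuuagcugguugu

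mmu-miR-34b-5p: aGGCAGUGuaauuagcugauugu

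mmu-miR-449a-5p: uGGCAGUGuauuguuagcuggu

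mmu-miR-34b-3p: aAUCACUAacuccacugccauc

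mmu-miR-34c-3p: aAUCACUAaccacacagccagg

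mmu-miR-34a-3p: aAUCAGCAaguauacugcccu

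The 5p arms of miR-34a and miR-34b carry the seed GGCAGUG, which 4 of the 1603 names with a matched sequence held, the other two being miR-449a-5p and miR-449c-5p. The 3p arms fell into separate seeds. miR-34b-3p and miR-34c-3p shared AUCACUA, found in no other of the 1603 names, and matched each other at 17 of 22 positions. miR-34a-3p had AUCAGCA, which no other of the 1603 names had.

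Libraries held 6643638 to 17241972 counts with tofogliflozin and 14276384 to 22886200 counts on the diet alone, after repeated rows of a name were reduced to the largest. The tissue label was checked with 8 miRNAs of renal cortex, such as miR-192-5p, miR-10a-5p and miR-196b-5p. All were counted in every library and together made up 210250 to 240132 CPM (counts scaled to library size with TMM factors) with tofogliflozin and 223018 to 238711 CPM on the diet alone. Most of this sum came from miR-10a-5p, miR-10b-5p and miR-192-5p, so it can hide a difference in a less abundant one. Of the 8, miR-204-5p was at 442 ± 62.3 CPM with tofogliflozin and 275 ± 21.6 CPM on the diet alone (SD). Its groups did not overlap, which held for 1 of the 8 and for 12% of all tested miRNAs (55 of 460). It is named after its values were seen. Tofogliflozin replicate 2, the shallowest library, stood apart on the first principal component of log2 CPM, which held 52.0% of the variance. It scored 13.8 there, against -6.17 to 0.14 in the other tofogliflozin libraries and -3.96 to -1.09 in the diet-only libraries.

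miR-34c-5p was the most abundant member, at 52.9 ± 9.96 CPM with tofogliflozin and 47.5 ± 1.23 CPM on the diet alone (SD, n = 3 each), rank 166 by mean CPM among the 1026 names with any count. miR-34a-5p followed at 17.1 ± 5.001 CPM with tofogliflozin and 16.5 ± 3.65 CPM on the diet alone (SD, n = 3 each; rank 211). miR-34b-3p was at 4.68 ± 0.60 CPM with tofogliflozin and 5.10 ± 1.23 CPM on the diet alone (SD, n = 3 each; rank 293). miR-34c-3p stood at 0.69 ± 0.24 CPM with tofogliflozin and 0.86 ± 0.28 CPM on the diet alone (SD, n = 3 each; rank 446). Over all libraries miR-34b-5p had 6 reads and miR-34a-3p had none. The order of the first 5 of these was the same in 6 of 6 libraries, and the ranges of neighbours over the 6 libraries did not overlap, except for miR-34b-5p and miR-34a-3p. Mature miRNAs are of nearly equal length (21 to 23 bases for the members shown), so CPM needs no length correction, but ligation and sequence preferences of a small RNA library can shift levels between miRNAs and were not measured.

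**Figure D1:**
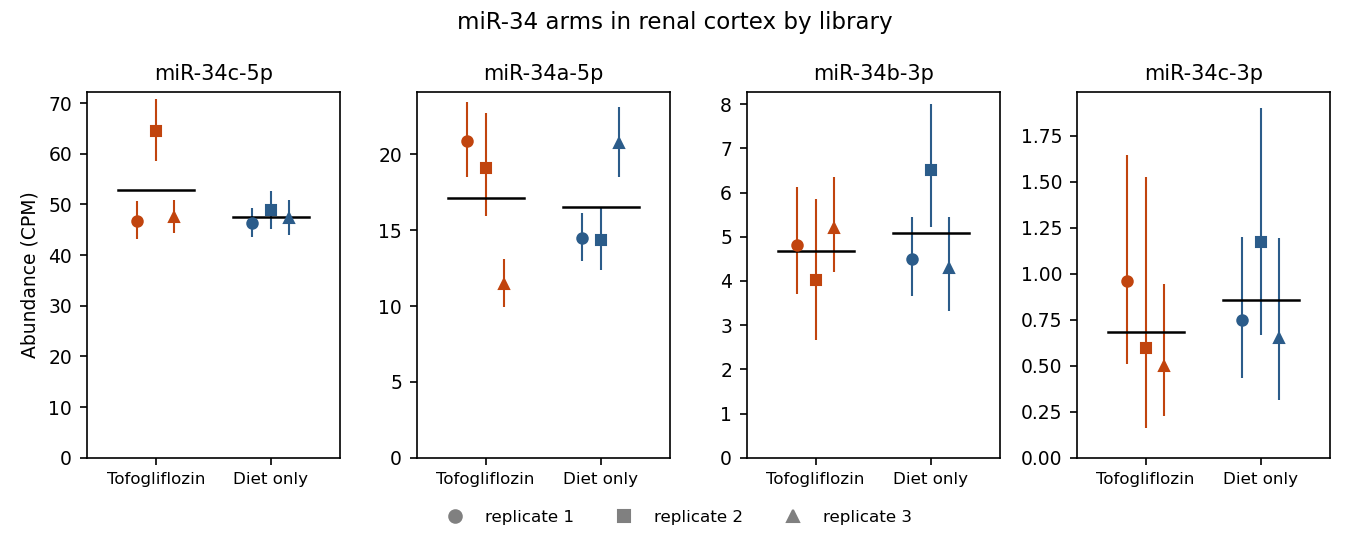
Abundance in CPM of the 4 miR-34 arms that passed the filter on low counts, with a separate linear axis for each arm. Points are single libraries with exact 95% Poisson intervals, which cover counting error only, and lines are group means. The groups overlap in each panel, and tofogliflozin replicate 2 is highest for miR-34c-5p at 64.4 CPM.

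Did tofogliflozin change the family? No member passed the threshold. The test was edgeR's quasi-likelihood F-test over all miRNAs, with Benjamini-Hochberg adjustment and a threshold of 0.05. Of the 6 members, 4 passed the filter on low counts, and 0 of these 4 were called, against 0% of the 460 miRNAs tested (0 of 460). At an unadjusted p under 0.05 there were 0 of 4 members, against 5% of all tested miRNAs, or 23 of 460. The count of 23 depended on single libraries, being 75 when tofogliflozin replicate 3 was dropped, 13 when tofogliflozin replicate 1 was and 11 when diet-only replicate 2 was. The tofogliflozin and diet-only libraries overlapped for each of the 4, while 12% of all tested miRNAs did not overlap. DESeq2 called 0.435% of the 460, miR-204-5p and miR-346-5p, which are named here after their values were seen, and limma-voom called 0%. Neither tool called a member. miR-204-5p is one of the renal cortex miRNAs above, with a log2 fold change of 0.69 ± 0.15 (SE; edgeR adjusted p = 0.387). Of that list, 4 were above 0 and 4 below, and edgeR called 0. With 2 members above 0 and 2 below, the median log2 fold change of the 4 tested members was -0.029, beside -0.0052 over all 460.

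For miR-34a-5p, the arm with the classical p53-linked functions, the 3 tofogliflozin libraries had 20.9, 19.1 and 11.4 CPM, from 282, 128 and 207 reads. The 3 diet-only libraries had 14.5, 14.3 and 20.7 CPM, with 329 reads in replicate 1 and 319 in replicate 3. The lowest library and the highest library were both from tofogliflozin mice, so the diet-only values lay within the tofogliflozin range. Its log2 fold change was 0.048 ± 0.28 (SE), with a 95% interval of -0.59 to 0.69, which spans folds of 0.664 to 1.61 (edgeR adjusted p = 0.988). Permuting the log2 CPM values exactly over the mice (2-sided) gave p = 0.9, where 3 against 3 mice cannot go below 0.1. The estimate turned below 0 when replicate 1 (-0.071) or 2 (-0.035) of the tofogliflozin mice or replicate 1 (-0.019) or 2 (-0.0078) of the diet-only mice was left out. Leaving out replicate 3 gave 0.30 (tofogliflozin) or 0.26 (diet only).

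The spread of miR-34a-5p between mice of a group was wider than counting error. Tofogliflozin replicate 3 had an exact Poisson interval of 9.94 to 13.1 CPM, below the interval of 18.5 to 23.4 CPM in tofogliflozin replicate 1. Among the diet-only mice, replicate 3 had an interval of 18.5 to 23.1 CPM, above that of 13.0 to 16.1 CPM in replicate 1. The coefficient of variation was 29.2% with tofogliflozin and 22.1% on the diet alone. In the edgeR fit the biological coefficient of variation of miR-34a-5p was 25.8%, beside 25.6% for the trend at its abundance. The fit draws the value of each miRNA toward this trend, so their closeness is partly set by the method.

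The dominant product of the other locus, miR-34c-5p, had 633, 432 and 860 reads in the tofogliflozin libraries, or 46.8, 64.4 and 47.6 CPM. In the diet-only libraries it had 1054, 668 and 729 reads, or 46.4, 48.8 and 47.4 CPM. All but 1 of these levels lay within 46.4 to 48.8 CPM, and tofogliflozin replicate 2 stood above them. The log2 fold change was 0.15 ± 0.18 (SE), with a 95% interval of -0.26 to 0.56 or folds of 0.837 to 1.48 (edgeR adjusted p = 0.877; exact permutation p = 0.6). Without tofogliflozin replicate 2 it was -0.0084, and it ran from 0.16 to 0.29 with any other library left out.

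In the 3 diet-only mice the miR-34c-5p levels differed by less than counting error, with a coefficient of variation of 2.60%. The Poisson interval was 43.6 to 49.3 CPM in the lowest of them, replicate 1, and 45.2 to 52.7 CPM in the highest, replicate 2. Among the tofogliflozin mice the coefficient of variation was 18.8%, and the interval of replicate 2, 58.5 to 70.8 CPM, lay above those of replicates 1 and 3, which ended at 50.6 and 50.8 CPM. Replicate 2 is also the library that stood apart over all miRNAs. The part of this in the miR-34c-5p value was not tested.

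miR-34b-3p, which is cut from the same transcript as miR-34c-5p, had 65, 27 and 94 reads with tofogliflozin, or 4.81, 4.03 and 5.20 CPM. On the diet alone it had 102, 89 and 66 reads, or 4.49, 6.51 and 4.29 CPM. Diet-only replicate 2 was the highest, and tofogliflozin replicate 2, the highest for miR-34c-5p, was the lowest here. The log2 fold change was -0.11 ± 0.26 (SE), with a 95% interval of -0.71 to 0.50 (edgeR adjusted p = 0.969; exact permutation p = 0.8), and it turned to 0.13 without diet-only replicate 2.

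The least abundant tested member, miR-34c-3p, had 13, 4 and 9 reads with tofogliflozin and 17, 16 and 10 reads on the diet alone. These gave 0.96, 0.60 and 0.50 CPM with tofogliflozin, against 0.75, 1.17 and 0.65 CPM on the diet alone, so the groups overlapped. Its log2 fold change of -0.30 ± 0.48 (SE) had the widest interval of the 4 tested members, -1.40 to 0.80 (edgeR adjusted p = 0.914; exact permutation p = 0.5). Leaving out tofogliflozin replicate 1 moved it to -0.62, and leaving out diet-only replicate 2 to -0.0044. In folds the interval runs from 0.378 to 1.75.

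**Figure D2:**
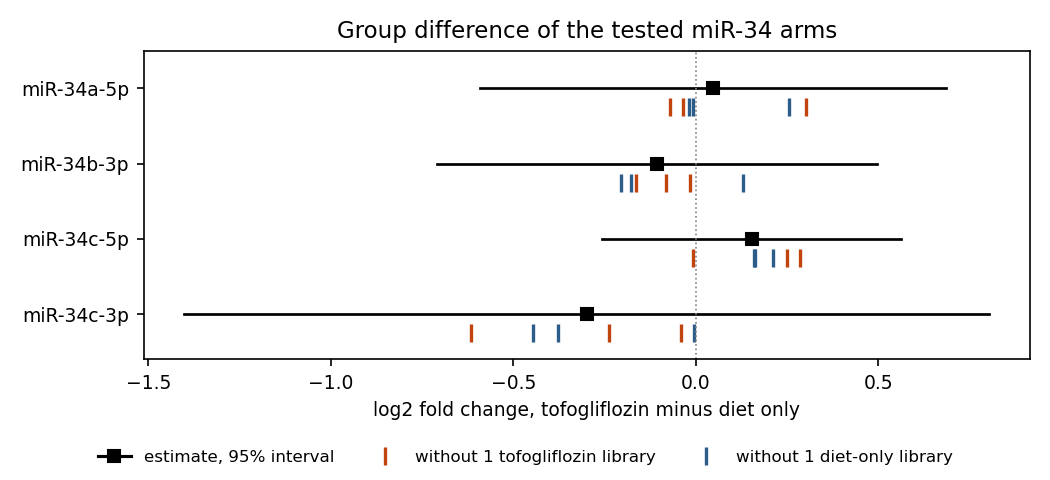
Log2 fold change, tofogliflozin minus diet only, of the 4 tested miR-34 arms. Squares are edgeR estimates with 95% intervals, and ticks are estimates with 1 library left out. All 4 intervals include 0, and ticks lie on both sides of 0 for miR-34a-5p, miR-34b-3p and miR-34c-5p.

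Did the miR-34a locus and the miR-34b/c locus differ in their response? Reads were summed over the arms of each locus. The miR-34a sum was 17.1 ± 5.001 CPM with tofogliflozin and 16.5 ± 3.65 CPM on the diet alone, and the miR-34b/c sum was 58.4 ± 9.49 CPM with tofogliflozin and 53.6 ± 2.65 CPM on the diet alone (SD, n = 3 each). On the log2 scale (pseudocount 1), the group differences were 0.030 for miR-34a (exact permutation p = 0.9) and 0.11 for miR-34b/c (exact permutation p = 0.5). Because miR-34a-3p had no read, the miR-34a sum is miR-34a-5p alone, and the 2 values of that arm are not separate evidence. Of all reads of the family, miR-34a supplied 22.6% ± 5.42 with tofogliflozin and 23.5% ± 4.29 on the diet alone (SD, n = 3 each).

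The ratio of the leading arms needs no size factor. miR-34c-5p had 2.24, 3.38 and 4.15 reads for each miR-34a-5p read in the tofogliflozin libraries, against 3.204, 3.41 and 2.29 in the diet-only libraries. It was the more abundant arm in 6 of 6 libraries, by 3.26 ± 0.96 times with tofogliflozin and 2.97 ± 0.60 times on the diet alone (SD, n = 3 each). The tofogliflozin libraries had both the lowest and the highest ratio. The log2 ratio of miR-34a-5p to miR-34c-5p differed by -0.11 between the groups (exact 2-sided permutation p = 0.8), and this difference turned to 0.067 when diet-only replicate 3 was left out and to 0.088 when tofogliflozin replicate 3 was. For the locus sums it was -0.084 (exact permutation p = 0.8), and 0.11 and 0.12 without the same libraries.

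Within the miR-34b/c locus, miR-34c-5p had 9.74, 16 and 9.15 reads for each miR-34b-3p read with tofogliflozin, against 10.3, 7.51 and 11.05 on the diet alone. Tofogliflozin replicate 2 had the highest ratio and rests on 27 reads of miR-34b-3p. The log2 ratio differed by 0.23 between the groups (exact permutation p = 0.6).

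**Figure D3:**
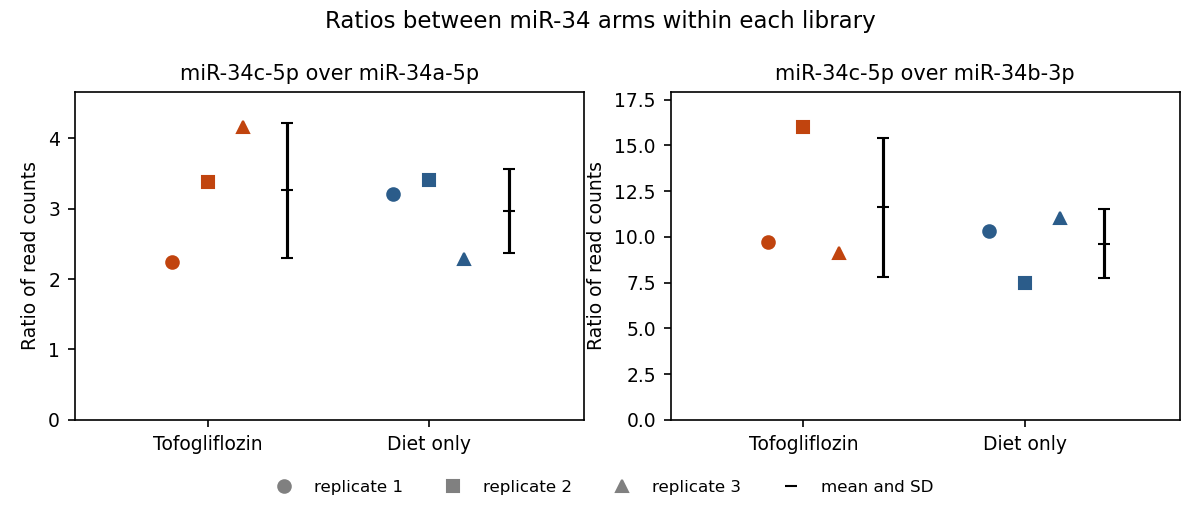
Ratio of read counts within each library, miR-34c-5p over miR-34a-5p on the left and miR-34c-5p over miR-34b-3p on the right, on linear axes from 0. Points are libraries and bars are group means with SD (n = 3 each). In both panels the groups overlap, with all ratios at or above 2.24 on the left and 7.51 on the right.

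The arm that was read differed between the 3 hairpins. mir-34a gave 1461 reads of the 5p arm and 0 of the 3p arm over the 6 libraries, which allows a 3p share of up to 0.205% (3 reads as the limit of a count of 0, counting error only). mir-34c gave 4376 reads of 5p and 69 of 3p, a 3p share of 1.55% (exact 95% interval 1.21% to 1.96%). mir-34b was the reverse, with 6 reads of 5p and 443 of 3p, a 3p share of 98.7% (exact 95% interval 97.1% to 99.5%). The neighbouring hairpins of chromosome 9 were thus read mainly from opposite arms, in 6 of 6 libraries. In the seed terms given above, the miR-34b reads carried AUCACUA almost throughout, and the reads of miR-34a carried GGCAGUG. The 4376 reads of miR-34c-5p, most of the miR-34b/c locus, are left out here because no sequence was matched for that arm. By the background above, miR-34c carries the seed of miR-34a, which could not be checked here. These seeds therefore do not set the loci apart.

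A missing minor arm was not particular to mir-34a. Of 176 hairpins with both arms listed and at least 400 reads over the 6 libraries, 26 (14.8%) had no read of the minor arm, the median minor share was 0.884%, and 80 had more 3p than 5p reads. The minor shares of mir-34c and mir-34b lay above this median, with 103 and 100 of the 176 hairpins below them.

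miR-34b-5p was counted in 4 of 6 libraries, with 0, 2 and 0 reads with tofogliflozin and 1, 1 and 2 reads on the diet alone. Each of these counts lies under the limit of 3 reads that a count of 0 allows, 0.131 to 0.452 CPM depending on the library, so no fold change is given. Arms that are much alike can exchange reads. miR-34b-5p matched miR-34a-5p at 11 of 22 positions from the 5′ end, and it could not be compared with miR-34c-5p, which had no matched sequence. How the authors' counting treated reads that fit several arms is not given in these sources, so these 6 reads are uncertain.

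Arm use did not differ detectably between the groups. In limma on the log2 ratio of 5p to 3p reads, 0 of 111 hairpins passed the threshold (0%), 1.8% had an unadjusted p under 0.05, and mir-34c was the 1 miR-34 hairpin with enough reads in its lower arm. The 5p share of mir-34c was 98.7% ± 0.60 with tofogliflozin and 98.2% ± 0.52 on the diet alone (SD, n = 3 each). The log2 ratio differed by 0.38 ± 0.37 (SE), with a 95% interval of -0.48 to 1.24 (limma adjusted p = 0.937; exact permutation p = 0.3). It stayed above 0 with each library left out, at 0.16 when diet-only replicate 2 was omitted and at 0.69 when tofogliflozin replicate 1 was. Its groups overlapped, while 6.31% of the 111 hairpins had groups that did not.

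**Figure D4:**
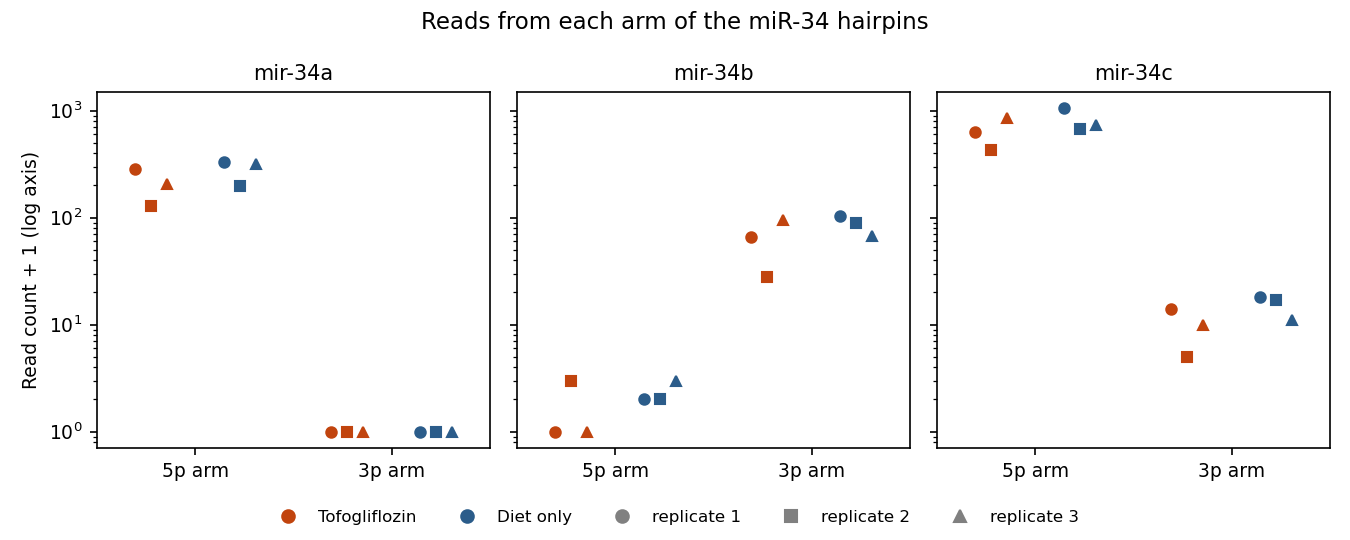
Reads of the 5p and the 3p arm of mir-34a, mir-34b and mir-34c in each library, as count + 1 on a log axis, with tofogliflozin left of diet only. mir-34a and mir-34c are dominated by 5p reads (1461 and 4376 in all) and mir-34b by 3p reads (443 in all), in both groups.

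The miR-449 family, which marks multiciliated cells, was almost unread. Of its names, miR-449a-5p and miR-449c-5p carry the seed of miR-34a-5p. miR-449a-3p and miR-449c-3p have other seeds, and miR-449b had no matched sequence. miR-449a-5p had 2, 2 and 3 reads in the tofogliflozin libraries and 3, 2 and 0 reads on the diet alone, miR-449b had a single read, and the other 3 of the 5 names had none. Their summed level was 0.166 to 0.298 CPM with tofogliflozin and 0 to 0.146 CPM on the diet alone. With at most 3 reads of miR-449a-5p in a library, this lies near the limit of a count of 0 (0.131 to 0.452 CPM). The ranges are therefore not read as a group difference. Over the 6 libraries miR-449a-5p had 12 reads, against 1461 of miR-34a-5p, which has the same seed. Of 4 germ cell miRNAs, such as miR-741-3p and miR-871-3p, the summed level was 0.074 to 0.332 CPM with tofogliflozin and 0 to 0.352 CPM on the diet alone, and miR-743a-3p was at 0 in every library. These sums too rest on few reads, with at most 6 of miR-871-3p in a library.

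Other cell types that whole cortex can hold were checked by their miRNAs. The 6 leukocyte miRNAs summed to 130 to 195 CPM with tofogliflozin and 140 to 193 CPM on the diet alone, and 5 of the 6 had a log2 fold change below 0 (median -0.20, 0 called). The 2 hepatocyte arms of miR-122 summed to 45.8 to 245 CPM with tofogliflozin and 40.7 to 78.6 CPM on the diet alone, with miR-122-3p at 0 in every library. miR-122-5p, the arm tested, was at 114 ± 114 CPM with tofogliflozin and 53.8 ± 21.5 CPM on the diet alone (SD, n = 3 each). The groups overlapped, and the tofogliflozin SD was as large as the mean. The log2 fold change of miR-122-5p was 1.07 ± 0.65 (SE; edgeR adjusted p = 0.854). With no filter on low counts it was called (1.04, edgeR adjusted p = 4.2e-04), as 1 of 10 called among the 1026 names with any count. The call thus depended on the filter, while the estimate changed little. The 4 erythroid miRNAs summed to 84.3 to 224 CPM with tofogliflozin and 46.7 to 165 CPM on the diet alone, and both tested ones, miR-451a and miR-486-5p, had a log2 fold change above 0 (median 0.51, 0 called). Their part in the miR-34 values was not tested.

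Other miRNAs linked to p53 were compared from a list of 23 names. These include miR-192, miR-194 and miR-215, which p53 raises by transcription, and miR-16, miR-143 and miR-145, whose processing p53 has been described to favour. Of the 23, 21 were matched, 16 were tested and 0 passed the threshold, with 6 above 0 and 10 below and a median log2 fold change of -0.062, against -0.0052 over all 460. At an unadjusted p under 0.05 there was 1 of 16, against 5% of all tested miRNAs. That was miR-203-3p, best known as a differentiation miRNA of epithelia, at 376 ± 60.3 CPM with tofogliflozin and 542 ± 135 CPM on the diet alone (SD, n = 3 each). The log2 difference was -0.53 ± 0.21 (SE; edgeR adjusted p = 0.854). The next by p were miR-200c-3p, an epithelial miRNA, at 0.31 ± 0.17, miR-16-1-3p at -0.30 ± 0.22 and miR-143-5p at 0.24 ± 0.18 (log2 fold change ± SE; edgeR adjusted p = 0.854, 0.859 and 0.859). The groups overlapped for each of these 4, and did not overlap for 1 of the 16 tested, against 12% of all tested miRNAs. That was miR-16-5p, at 248 ± 19.4 CPM with tofogliflozin and 275 ± 6.90 CPM on the diet alone (SD, n = 3 each), named here after its values were seen. miR-192-5p, at 50693 ± 5183 CPM with tofogliflozin and 52341 ± 1845 CPM on the diet alone (SD, n = 3 each), was far more abundant than any miR-34 arm.

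Members were also compared by their pattern over the 6 libraries, as the root mean square difference of log2 CPM after centring each miRNA on its mean. Of 319 other miRNAs with a mean of at least 50 reads, those nearest to miR-34a-5p were miR-99b-3p (distance 0.15), miR-455-5p (0.17) and miR-3081-3p (0.17), where the median distance was 0.39. miR-34c-5p ranked 80 by nearness to miR-34a-5p (0.32), and miR-34b-3p ranked 230 (0.48). Nearest to miR-34c-5p were miR-423-3p (0.072), miR-148b-5p (0.084) and miR-145a-5p (0.090), with a median distance of 0.28. The miR-34c-5p pattern is mainly its high level in tofogliflozin replicate 2 (64.4 CPM), so nearness to miR-34c-5p rests largely on that library. miR-34b-3p, from the same transcript, ranked 195 by nearness to miR-34c-5p (0.33), behind miR-34a-5p at rank 183 (0.32). These distances describe 6 libraries that share their normalization, and low counts such as the 27 to 102 reads of miR-34b-3p can raise a distance. miR-3081-3p, at rank 3 for miR-34a-5p, had a similarly low level, 4.05 CPM with tofogliflozin and 4.47 CPM on the diet alone. The part of low counts in these ranks was not tested.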

How the data were processed

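The authors deposited whole-number read counts, 1 row for each mature miRNA of each precursor and 1 table per library, without normalization, per the file headers and values. Per the labels' protocols, RNA came from a NucleoSpin miRNA kit and libraries from a NEBNext small RNA kit. Per the submitters' processing notes, cutadapt 1.14 and mm10 were used; no aligner, counter or miRBase release is named in these sources. The 2033 rows held 1900 names, 75 of them with more than 1 row. The largest count per library was kept, which left 76.2% to 77.3% of a library's deposited total. Columns of other samples numbered 0.

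Tofogliflozin minus diet only was fitted without covariates in edgeR 4.0.16 under R 4.3.3 (TMM, filterByExpr with a minimum count of 10 and total of 15), which kept 460 names and removed at most 0.00905% of a library's counts. DESeq2 1.42.0 and limma 3.58.1 were also used. The SE is the absolute log2 fold change over the square root of F. Log2 CPM used a prior count of 2. Arm ratios (pseudocount 1) required a mean of 10 reads in the lower arm. Permutation tests have 20 arrangements. Reads carry no molecular identifiers in the tables, so intervals and limits cover counting error only. The series' design text gives 3 mice per group.

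The rule for the members uses names only, but members and lists were chosen with earlier results of these data known. Named besides the members were the miR-449 names, the 4 p53-linked miRNAs with the smallest p and the 3 miRNAs nearest to miR-34a-5p and to miR-34c-5p. miR-142 and miR-486 were matched under the names in the tables. For a self-check, 10 tables of 460 miRNAs were simulated from this comparison's means and library sizes, with 200 changed. There edgeR recovered 70.4% of 1-unit and 96.5% of 2-unit log2 changes, with 3.32% of its calls false. With 200 of 460 changed, the adjustment is more lenient than where few miRNAs change. No change under 1 unit was simulated, so these rates do not give the power for the members.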

Additional observations from a re-analysis of the deposited data

How the results depend on the processing

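Among the values of the members, loci and ratios under alternatives, 0 passed the threshold and 16 changed sign. All but 1 of the 16 came from leaving out a library, and the other was the miR-34a locus sum with upper quartile size factors, -0.0043 (the cause was not tested). With a library left out, the log2 fold change ran from -0.071 to 0.30 for miR-34a-5p, from -0.21 to 0.13 for miR-34b-3p and from -0.0084 to 0.29 for miR-34c-5p. The log2 difference of the miR-34a sum ran from -0.087 to 0.32, that of the miR-34b/c sum from -0.014 to 0.23, that of the miR-34a-5p to miR-34c-5p ratio from -0.35 to 0.088, and that of the ratio of sums from -0.32 to 0.12. The values of miR-34c-3p (-0.62 to -0.0044) and of the mir-34c arm ratio (0.16 to 0.69) kept their sign. The count of called miRNAs was 10 of 1026 with no filter on low counts and 2 of 460 with DESeq2, none of them a member. It was 0 under each other alternative run. Filtering at 10 CPM in 3 libraries left no value for miR-34b-3p or miR-34c-3p, and the arm minimum of 50 reads left none for mir-34c. miR-34c-3p had 4 to 17 reads in a library and miR-34b-5p at most 2, and 0 reads of miR-34a-3p in 90037781 counts allow up to 0.0333 CPM.

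Deviations from the group means correlated across 460 miRNAs at r = 0.0027, -0.14 and -0.17 between mice with the same number (miRNAs are not independent replicates), so the numbers were not taken as pairs. A replicate block gave 0 calls, and the log2 fold changes were 0.031 for miR-34a-5p, -0.087 for miR-34b-3p, 0.14 for miR-34c-5p and -0.26 for miR-34c-3p. With 3 complete pairs, the mean paired differences of the locus sums and ratios (0.030, 0.11, -0.11 and -0.084) and of the mir-34c arm ratio (0.38) equal the unpaired ones by construction, and exact sign-flip tests of the sums and ratios gave p = 1, 0.25, 1 and 1, where 0.25 is the smallest 3 pairs allow.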
